A study of Mus musculus with 9 samples.

Results

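The MYC, MAX and MXD network is described here through 7 genes, Myc, Max, Mxd1, Mxd3, Mxd4, Mxi1 and Mnt, out of 47937 genes in the count table. They were listed by symbol and matched to the table's Ensembl identifiers through GENCODE M21. All 7 were found and all 7 passed the filter on low counts. RNA was sequenced from CD4+ T cells purified from C57BL/6 mouse spleen and enriched for CD62L, a homing receptor of naive cells. There were 3 libraries in each of 3 groups, numbered 1, 4 and 5. The resting group (Resting) received no stimulation according to its label. The DMSO group (Th0_Ctrl) was stimulated by antibodies to CD3 and CD28 fixed to the plate, after 15 min with the solvent. The TEPP-46 group (Th0_TEPP) was stimulated in the same way after 15 min with TEPP-46, a small molecule activator of the glycolytic enzyme pyruvate kinase M2, at a concentration given only as 50 to 100 µM. The sources used here do not give the animals' age, the length of stimulation, any pooling of animals or whether resting cells were cultured.

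MYC is a transcription factor that binds DNA as a pair with MAX, at E-box sequences of promoters, and drives genes of ribosome production, nucleotide synthesis and metabolism. MXD1, MXD3, MXD4, MXI1 and MNT also need MAX as their partner, bind the same sequences and recruit SIN3 corepressor complexes with histone deacetylases, so that they act against MYC. In T cells MYC is known as an early product of antigen receptor stimulation that is needed for the growth of the activated cell, while MXD proteins are known from resting and differentiating cells.

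Total counts ran from 2397304 to 5030643 per library, and 3 counts corresponded to 0.596 to 1.25 CPM (counts per 1000000) on these unscaled totals. All other CPM values here are on scaled library sizes. Nothing in the labels ties the replicates to different animals, so the p-values reflect the spread among these libraries alone, and that spread may be technical. TEPP-46 replicate 4 had the lowest total. The TEPP-46 libraries resembled each other less (correlations of log2 CPM over genes of 0.818 to 0.913) than the DMSO libraries did (0.972 to 0.983), and resting replicate 1 stood apart from the other two resting libraries (0.937 and 0.938 against 0.977). All 10 T cell markers were detected in every library, with a summed level of 5030 to 10258 CPM, while the CD8 markers Cd8a and Cd8b1 averaged at most 2.16 and 14.8 CPM in a group and summed to at most 22.2 CPM in a library. Markers of other spleen cells moved with the groups. The summed level of 10 B cell markers was 2561 to 3973 CPM in resting, 235 to 262 in DMSO and 748 to 1294 in TEPP-46 libraries. That of 6 platelet and red cell markers was 2.81 to 9.77, 0.960 to 4.91 and 16.5 to 271 CPM. A CPM value is relative to all other RNA of its library, and in these bulk samples fewer cells of a type and less RNA per cell cannot be told apart.

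Activation with DMSO raised 3 of the 7 genes, Myc, Mxd3 and Mxi1, relative to resting cells. With TEPP-46, activated cells had less Myc and more Mxd1 and Mxd4 than with DMSO. Mxd1 was also higher with TEPP-46 than in resting cells, by 3.10 times, and was the only one of the 7 genes that passed the test in that comparison. A gene is called here at an adjusted p below 0.05 in edgeR's quasi-likelihood test (two-sided, Benjamini-Hochberg over 12536 genes), and changes are log2 fold changes ± SE from that fit. The 3 members called after activation with DMSO (42.9%) stand beside 31.2% of all genes called, and the 3 called for TEPP-46 against DMSO stand beside 16.2%. In the latter comparison 2 members rose and 1 fell, where 9.72% of all genes rose and 6.43% fell. The single member called for TEPP-46 against resting cells (14.3%) stands beside 10.3% called in either direction and 6.37% called higher. The median change of the 7 genes was 0.63, 0.32 and 0.88 in the 3 comparisons, beside -0.04, 0.04 and 0.02 over all genes.

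**Figure D1:**
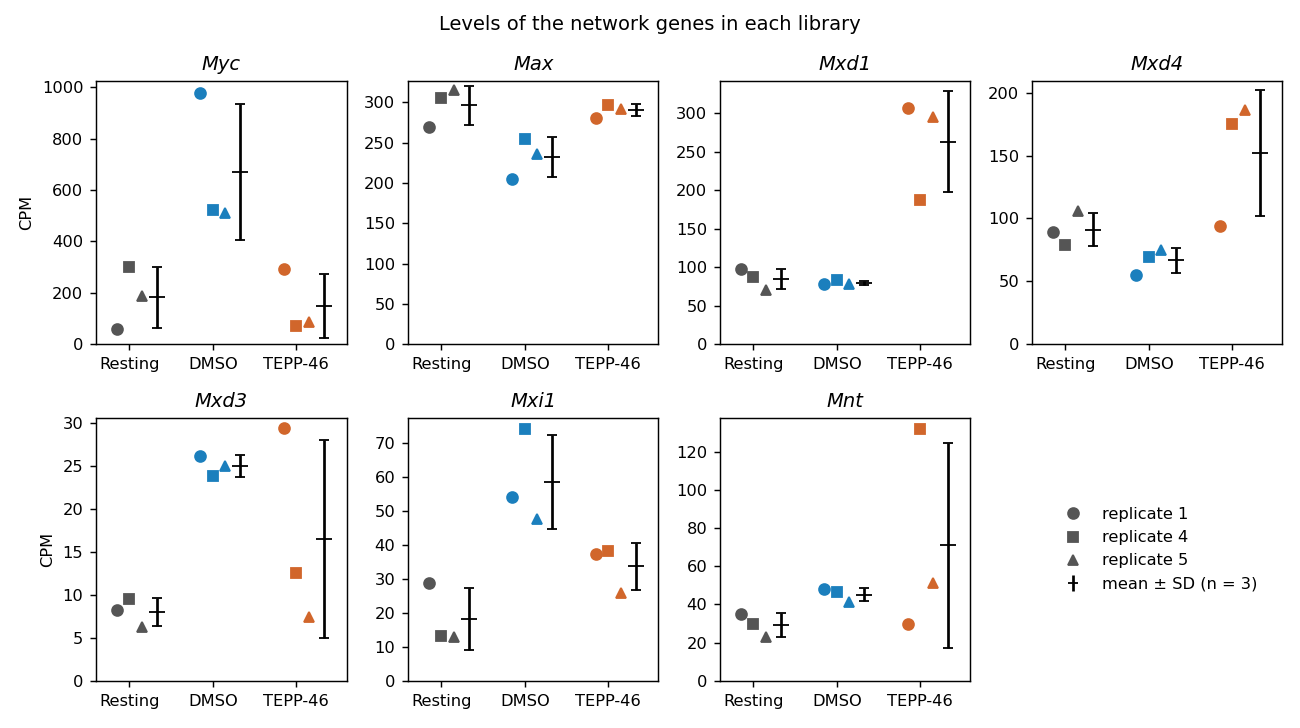
Level of each network gene in CPM (vertical axes, linear, from 0) in the resting, DMSO and TEPP-46 libraries, with 1 symbol per library (circle, square and triangle for replicates 1, 4 and 5) and the mean ± SD of 3 libraries in black. Myc is highest in the 3 DMSO libraries (512 to 977 CPM), and Mxd1 in the 3 TEPP-46 libraries (187 to 306 CPM).

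Myc (ENSMUSG00000022346.14, chromosome 15, 61985391 to 61990374, plus strand, GRCm38) encodes the activating partner of the network. Its level was 59.9, 299 and 188 CPM in resting replicates 1, 4 and 5, 977, 523 and 512 CPM in the DMSO libraries, and 291, 70.6 and 84.8 CPM in the TEPP-46 libraries. Each DMSO library was above every resting and every TEPP-46 library, while the resting and TEPP-46 ranges overlapped almost wholly. Within groups the highest library exceeded the lowest by 4.98 times in resting cells and 4.12 times with TEPP-46, against 1.91 times with DMSO. The lowest resting value came from replicate 1 and the highest TEPP-46 value from replicate 1.

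Myc rose by 1.88 ± 0.64 with activation (adjusted p = 0.0464, edgeR) and fell by 2.17 ± 0.65 with TEPP-46 against DMSO (log2 fold change; adjusted p = 0.0455, edgeR). TEPP-46 and resting cells differed by -0.29 ± 0.62 (95% interval -1.66 to 1.09, adjusted p = 0.812, edgeR), an interval that allows a change of either sign. In limma-voom with sample quality weights Myc was called lower with TEPP-46 than in resting cells (adjusted p = 0.0402). The nuclear RNAs Malat1 and Neat1, read here as a sign of RNA quality, summed to 8614, 4476 and 5410 CPM in resting, 2141, 4278 and 3997 in DMSO and 2584, 12594 and 13044 CPM in TEPP-46 libraries (replicates 1, 4 and 5). In each group the library with the lowest sum had the highest Myc, and the part of RNA quality in the Myc result was not tested. Both Myc calls lay close to the threshold. The activation call was lost without resting replicate 1 or 5 (adjusted p of 0.110 and 0.109), without DMSO replicate 1, 4 or 5 (0.153, 0.0763 and 0.0773) or without TEPP-46 replicate 5 (0.0522). The TEPP-46 call was lost without resting replicate 4 or 5 (0.0502 and 0.0661), DMSO replicate 1, 4 or 5 (0.151, 0.0928 and 0.0971) or TEPP-46 replicate 4 or 5 (0.103 and 0.153). Without TEPP-46 replicate 1 the difference was -3.12 (adjusted p = 0.00434).

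Max (ENSMUSG00000059436.12, chromosome 12, 76937269 to 76962201, minus strand) encodes the partner that all the other members need. Its highest library exceeded its lowest by 1.17, 1.24 and 1.05 times in resting, DMSO and TEPP-46 cells, the narrowest range of the 7 genes in resting and TEPP-46 cells though not with DMSO. It stood at 269, 305 and 315 CPM in resting, 205, 254 and 236 CPM in DMSO and 281, 296 and 292 CPM in TEPP-46 libraries (replicates 1, 4 and 5). The DMSO libraries lay below those of both other groups. The differences were small and did not pass the test, with -0.36 ± 0.18 for activation (95% interval -0.75 to 0.04, adjusted p = 0.15) and 0.32 ± 0.18 for TEPP-46 against DMSO (-0.07 to 0.72, adjusted p = 0.223, both edgeR). Max in TEPP-46 and resting cells differed by -0.03 ± 0.18 (95% interval -0.42 to 0.36), and this difference changed sign without resting replicate 5 (0.01).

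Mxd1 (ENSMUSG00000001156.9, chromosome 6, 86647042 to 86669161, minus strand) encodes the founding repressor of the MXD family, known from cells that leave the cell cycle. Its level was 97.0, 86.9 and 70.5 CPM in resting and 78.0, 82.8 and 77.6 CPM in DMSO libraries, and 306, 187 and 295 CPM with TEPP-46. Resting and DMSO libraries overlapped, and each TEPP-46 library was above all of them. Mxd1 rose by 1.73 ± 0.23 with TEPP-46 against DMSO (3.31 times, adjusted p = 0.00270, edgeR) and by 1.63 ± 0.23 against resting cells (adjusted p = 0.00341, edgeR). It ranked 83rd and 103rd of 12536 genes by p in these comparisons. Both calls held in each of 19 other settings, including the omission of any single library (highest adjusted p of 0.0266 and 0.0242). Activation with DMSO gave -0.09 ± 0.23 for Mxd1 (95% interval -0.60 to 0.41, adjusted p = 0.785, edgeR), with a change of sign but no call on total counts alone (0.01) and without resting replicate 1 (0.02).

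Mxd4 (ENSMUSG00000037235.13, chromosome 5, 34173883 to 34187720, minus strand), another MXD repressor known from resting and differentiated cells, was the other member that rose with TEPP-46. It stood at 88.9, 79.2 and 106 CPM in resting, 55.4, 69.6 and 74.6 CPM in DMSO and 94.3, 175 and 186 CPM in TEPP-46 libraries. The DMSO libraries were the lowest, and TEPP-46 replicate 1 lay within the resting range while replicates 4 and 5 lay above it. The rise against DMSO was 1.19 ± 0.27 (2.28 times, adjusted p = 0.0194, edgeR). It was lost without DMSO replicate 1, 4 or 5 (adjusted p of 0.0866, 0.0721 and 0.0674) or TEPP-46 replicate 5 (0.0747). Mxd4 in activated DMSO cells differed from resting cells by -0.46 ± 0.27 (adjusted p = 0.223), and TEPP-46 from resting cells by 0.73 ± 0.27 (adjusted p = 0.114, both edgeR). The latter was called without TEPP-46 replicate 1 (0.97, adjusted p = 0.0142). An antisense transcript, Gm42846, shares 514 exonic bases with Mxd4, and the sources used here do not say whether the counting used strand. Gm42846 stood at 9.95 to 11.9, 3.43 to 9.60 and 7.15 to 25.2 CPM in resting, DMSO and TEPP-46 libraries, and its reads cannot be told apart from those of Mxd4 in the shared bases.

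Platelet, B cell and myeloid marker sums, like Mxd1 and Mxd4, were higher with TEPP-46 than with DMSO. In TEPP-46 replicates 1, 4 and 5 the 6 platelet and red cell markers summed to 16.5, 271 and 84.1 CPM, with the platelet gene Pf4 at 33, 367 and 141 counts and the red cell genes Hba-a1 and Hbb-bs at 0 counts. Pf4 had 0 counts in each DMSO library. Mxd1 was lowest in replicate 4, where these markers were highest, and Mxd4 was lowest in replicate 1, where they were lowest. Myeloid markers (8 genes) summed to 131 to 137 CPM with TEPP-46, 97.0 to 111 with DMSO and 100 to 146 CPM in resting libraries. Most of the sum was Cst3, at 93.5 CPM on average with TEPP-46 and 78.4 CPM with DMSO. Csf1r and Cd68 averaged lower with TEPP-46 (10.2 and 9.19 CPM) than with DMSO (13.5 and 11.4 CPM), and the other listed myeloid markers averaged higher. Malat1 and Neat1 summed to 2584, 12594 and 13044 CPM in TEPP-46 replicates 1, 4 and 5, against 2141 to 4278 CPM with DMSO and 4476 to 8614 CPM in resting libraries. Mxd4 had the same order over these TEPP-46 libraries (94.3, 175 and 186 CPM), and Mxd1 did not (306, 187 and 295 CPM). The B cell markers summed to 875, 1294 and 748 CPM, against 235 to 262 CPM with DMSO and 2561 to 3973 CPM in resting libraries. The part of platelets, B cells and RNA quality in the rises of Mxd1 and Mxd4 was not tested.

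The upstream DNA of Mxd1 and Mxd4 is shown because these genes rose together with TEPP-46, and that of Mxd3 and Mxi1 because they rose together with activation. Promoter windows came from RefSeq (GRCm38.p6, from 250 bases before to 50 after each start) and matched 6 of the 7 members, all but Myc, with 8 windows in all because Mxi1 has 3. The sequences run 5′ to 3′ on the gene's strand and stop before the first GENCODE exon of the gene, and capitals mark any match to a searched motif. The stretches are chr6:86669162-86669409 (minus strand) for Mxd1, chr5:34187721-34187960 (minus) for Mxd4, chr13:55329824-55329981 (minus) for Mxd3 and chr19:53329163-53329412 (plus) for the second start of Mxi1. Not shown are the third Mxi1 window and the first (upstream part chr19:53310256-53310505, plus), which held no match to a searched motif.
Mxd1: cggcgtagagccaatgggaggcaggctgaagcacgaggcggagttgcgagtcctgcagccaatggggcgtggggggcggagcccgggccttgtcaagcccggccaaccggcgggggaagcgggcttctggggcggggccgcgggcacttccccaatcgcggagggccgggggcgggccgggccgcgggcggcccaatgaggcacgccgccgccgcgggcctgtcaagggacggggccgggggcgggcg
Mxd4: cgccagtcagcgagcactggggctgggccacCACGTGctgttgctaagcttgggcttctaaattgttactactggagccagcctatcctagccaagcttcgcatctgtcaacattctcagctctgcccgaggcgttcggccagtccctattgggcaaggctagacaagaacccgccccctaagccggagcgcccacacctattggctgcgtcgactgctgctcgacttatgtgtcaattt
Mxd3: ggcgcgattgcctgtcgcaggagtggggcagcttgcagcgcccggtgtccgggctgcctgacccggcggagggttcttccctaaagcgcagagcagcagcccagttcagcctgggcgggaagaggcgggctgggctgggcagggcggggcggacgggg
Mxi1: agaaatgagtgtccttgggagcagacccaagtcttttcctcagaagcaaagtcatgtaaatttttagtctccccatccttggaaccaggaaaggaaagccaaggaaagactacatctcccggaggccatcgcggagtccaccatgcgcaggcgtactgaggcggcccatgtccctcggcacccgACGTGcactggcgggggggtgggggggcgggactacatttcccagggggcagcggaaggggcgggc

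The E-box CACGTG, the sequence bound by MYC with MAX and by the MXD proteins with MAX, was found in the windows of Mxd4, Max and Mnt. It begins at position -219 from the start in Mxd4, -3 in Max and -123 in Mnt. Of 32851 windows of the same length in the table, 7.15% hold it. The 30 bases around the E-box of Max (chr12:76962234-76962263, minus strand) and of Mnt (chr11:74830789-74830818, plus strand) are shown beside that of Mxd4 above, with the E-box in capitals.
Max: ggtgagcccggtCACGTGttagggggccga
Mnt: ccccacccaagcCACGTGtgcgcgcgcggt

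So of the pair that rose with TEPP-46, the Mxd4 window held an E-box and the Mxd1 window did not. ACGTG, the core of the hypoxia response element, lies within every CACGTG. It was found outside an E-box in 2 of the 3 Mxi1 windows, at positions -66 and -25, while 19.6% of all windows hold it on either strand. The FOXO motif GTAAACA was present in the third Mxi1 window at -231 (3.65% of all windows). That window, which also holds the match at -25, begins inside a GENCODE exon of Mxi1. The E2F motifs TTTCCCGC and TTTGGCGC were found in none of the members' windows on either strand, and in 1.07% and 0.514% of all windows. These matches describe letters in a window and were not measured as binding.

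Mxd3 (ENSMUSG00000021485.13, chromosome 13, 55325168 to 55329823, minus strand), an MXD member known from proliferating cells, was the least abundant by counts. It had 41, 36 and 29 counts in resting libraries (8.25, 9.51 and 6.27 CPM), 107, 99 and 99 with DMSO (26.2, 23.8 and 25.0 CPM) and 107, 30 and 23 with TEPP-46 (29.4, 12.6 and 7.44 CPM). All DMSO libraries lay above the resting range. The TEPP-46 libraries spanned both, with replicate 1 above every DMSO library and replicate 5 within the resting range. Mxd3 rose by 1.64 ± 0.45 with activation (3.12 times, adjusted p = 0.0205, edgeR). That call was lost without resting replicate 1 or 5 (adjusted p of 0.0513 and 0.0744) or DMSO replicate 1, 4 or 5 (0.0619, 0.0543 and 0.0598). TEPP-46 against DMSO gave -0.59 ± 0.44 (adjusted p = 0.369, edgeR), and without TEPP-46 replicate 1 it was -1.34 and was called (adjusted p = 0.0153). Mxd3 shares 105 exonic bases with Prelid1 on the opposite strand, which was at 303 CPM in TEPP-46 replicate 1, its highest level in any library, and 85.7 to 199 CPM elsewhere.

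Mxi1 (ENSMUSG00000025025.13, chromosome 19, 53310518 to 53375810, plus strand) encodes a further MXD repressor, also called MXD2. It stood at 28.8, 13.2 and 12.8 CPM in resting, 54.0, 74.2 and 47.6 CPM in DMSO and 37.4, 38.2 and 25.9 CPM in TEPP-46 libraries. DMSO libraries lay above all others, and the TEPP-46 libraries lay below them and mostly above the resting ones. Mxi1 rose by 1.68 ± 0.36 with activation (3.20 times, adjusted p = 0.00647, edgeR), a call that held in each of 19 other settings (highest adjusted p = 0.0314). TEPP-46 differed from DMSO by -0.79 ± 0.35 (95% interval -1.57 to -0.02, adjusted p = 0.139, edgeR), although the libraries did not overlap. Against resting cells, Mxi1 with TEPP-46 was at 0.88 ± 0.36 (adjusted p = 0.144, edgeR), called only when resting replicate 1 was left out (1.37, adjusted p = 0.0296) or with sample quality weights. Mxi1 shares 194 exonic bases with Gm10197 on the opposite strand, which was at 7.11 CPM or less in every library.

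Mnt (ENSMUSG00000000282.12, chromosome 11, 74830920 to 74845725, plus strand) encodes a larger MAX partner that is widely expressed and counters MYC in growing cells. Its level was 35.0, 29.8 and 22.9 CPM in resting, 48.1, 46.3 and 41.3 CPM in DMSO and 29.7, 132 and 51.4 CPM in TEPP-46 libraries. The DMSO libraries were above the resting ones, and the TEPP-46 libraries ran from the resting range to far above the DMSO range, set by replicate 4. No comparison of Mnt was called, with 0.63 ± 0.45 for activation (adjusted p = 0.310), 0.64 ± 0.45 for TEPP-46 against DMSO (adjusted p = 0.335) and 1.27 ± 0.45 for TEPP-46 against resting cells (adjusted p = 0.104, all edgeR). Without TEPP-46 replicate 4 the last 2 values were -0.16 (adjusted p = 0.733) and 0.47 (adjusted p = 0.307). Without replicate 1 they were 1.0 and 1.63, and both were called (adjusted p of 0.0498 and 0.0168). DESeq2 called the difference from resting cells with all libraries (adjusted p = 0.0483).

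**Figure D2:**
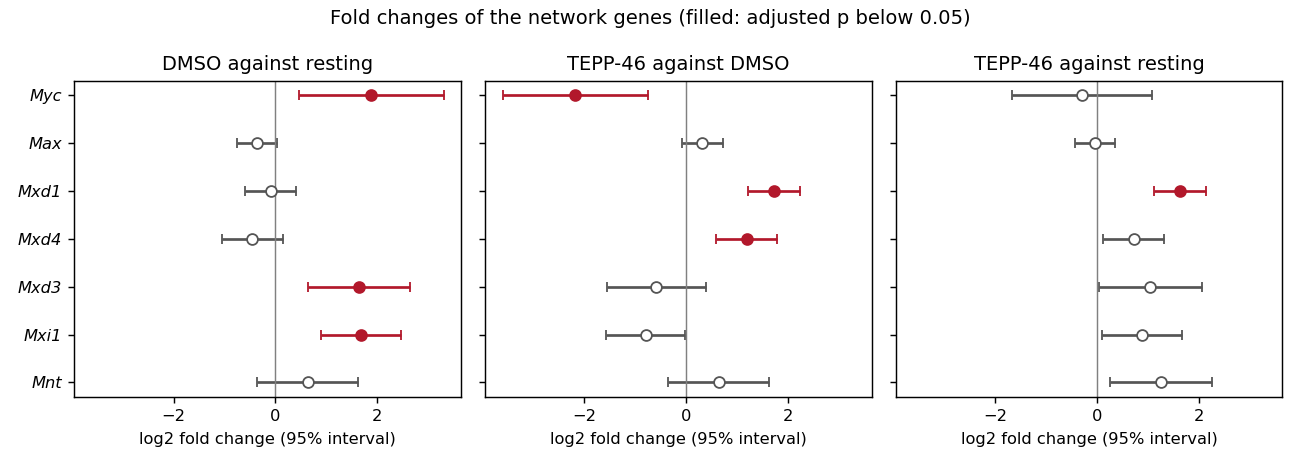
Log2 fold change of each network gene with its 95% interval (horizontal axes) in the 3 comparisons, from edgeR's fit over 9 libraries, with filled red points for an adjusted p below 0.05. Myc, Mxd3 and Mxi1 are called after activation, Myc, Mxd1 and Mxd4 for TEPP-46 against DMSO, and Mxd1 (1.63) for TEPP-46 against resting cells.

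The libraries of the groups did not overlap for 6 of the 7 genes after activation (all but Mxd1), beside 59.2% of all genes tested. For TEPP-46 against DMSO this held for 5 of the 7, namely Myc, Max, Mxd1, Mxd4 and Mxi1, beside 39.7% of all genes. For TEPP-46 against resting cells it held for Mxd1, beside 26.8% of all genes. Changes for activation and for TEPP-46 against DMSO share the same 3 DMSO libraries, so their opposite signs for Myc, Max, Mxd1, Mxd3, Mxd4 and Mxi1 are not independent.

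Levels of different genes were compared per kilobase of exon, as CPM divided by the union of a gene's exons. In resting cells Max was at 82.3 ± 6.81 CPM per kilobase (mean ± SD, n = 3), Myc at 67.0 ± 44.0, Mxd1 at 12 ± 1.89, Mxd4 at 10.8 ± 1.57, Mnt at 6.32 ± 1.31, Mxd3 at 3.38 ± 0.69 and Mxi1 at 2.67 ± 1.34. Neighbours in this order differed by less than the larger of their SDs for Max and Myc, for Mxd1 and Mxd4, and for Mxd3 and Mxi1. With the longest transcript as length Mxd4 (19.7) came before Mxd1 (18.2) in resting cells. With DMSO, Myc led at 247 ± 97.7, then Max at 64.4 ± 6.91, while the 5 repressor genes lay close together, with Mxd1 at 11.2 ± 0.41, Mxd3 at 10.5 ± 0.52, Mnt at 9.78 ± 0.76, Mxi1 at 8.59 ± 2.03 and Mxd4 at 7.85 ± 1.17. The order of these 5 depended on the length used, since with the longest transcript Mxd4 (14.4) came next after Mxd1 (17.0) and Mnt (9.86) came last. With TEPP-46 the order was Max (80.5 ± 2.09), Myc (54.8 ± 45.4), Mxd1 (37.2 ± 9.29), Mxd4 (17.9 ± 5.90), Mnt (15.3 ± 11.6), Mxd3 (6.96 ± 4.85) and Mxi1 (4.96 ± 1.01), and only Mxd1 and Mxd4 were neighbours in this order that differed by more than the larger SD.

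The 5 repressor genes summed to 31.9 to 39.5 CPM per kilobase in the resting libraries, 46.2 to 50.8 with DMSO and 78.7 to 86.4 with TEPP-46. These ranges over libraries did not overlap. The make-up of the sum differed between groups as well. Mxd1 made up 31.3% to 36.1% of it in resting, 23.0% to 23.7% in DMSO and 30.7% to 55.0% in TEPP-46 libraries. Mxd3 and Mxi1 together with Mnt filled most of the DMSO sum, with Mxi1 at 15.1% to 21.4% and Mxd3 at 19.7% to 23.6%, against 4.64% to 6.96% and 3.84% to 15.8% with TEPP-46. In TEPP-46 replicate 4, Mnt was the largest part at 32.9%.

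Myc stood at 3.79 to 7.66 times the summed repressor level with DMSO, at 0.559 to 3.23 times in resting cells and at 0.301 to 1.36 times with TEPP-46. All DMSO libraries were above all others, and TEPP-46 replicates 4 and 5 (0.301 and 0.382) were below every resting library, while replicate 1 (1.36) was inside the resting range. With the longest transcript as length these ranges were 3.14 to 6.43, 0.442 to 2.54 and 0.249 to 1.07. Myc per kilobase exceeded Max by 2.73 to 6.32 times in every DMSO library, and the ratio was 0.296 to 1.30 in resting and 0.316 to 1.37 in TEPP-46 libraries. With the longest transcript as length it was 1.71 to 3.96 with DMSO, 0.185 to 0.813 in resting and 0.198 to 0.859 in TEPP-46 libraries. The ratios are descriptions of RNA and were given no test.

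**Figure D3:**
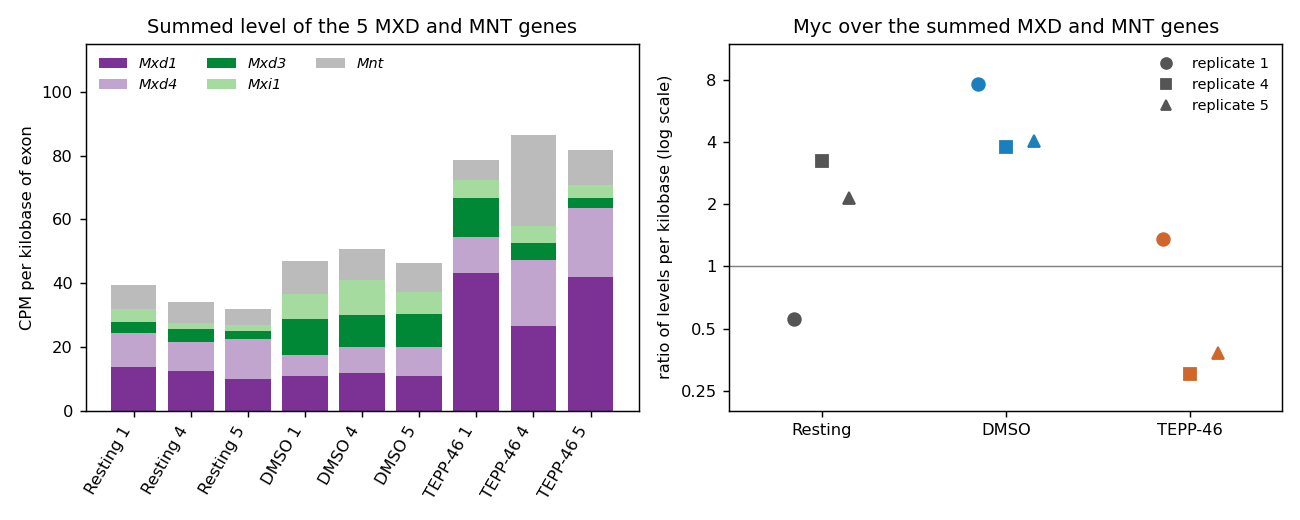
Left, summed level of Mxd1, Mxd4, Mxd3, Mxi1 and Mnt in CPM per kilobase of exon, as stacked bars from 0 with 1 bar per library. Right, ratio of Myc to that sum on a log scale, with 1 symbol per library. The sum is 78.7 to 86.4 in the TEPP-46 bars, and the ratio is 3.79 or more in the DMSO libraries and 3.23 or less in the others.

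Of 6 other proteins of the network 3 could be tested, and Mlxip was the one of these that was called. Its rises with TEPP-46 are 33.3% of the 3, beside 9.72% of all genes called higher against DMSO and 6.37% against resting cells. After activation 0 of the 3 were called, beside 31.2% of all genes. Mycn, Mycl and Mlxipl had 16, 7 and 3 counts over the resting libraries, 7, 7 and 9 over the DMSO libraries and 4, 0 and 1 over the TEPP-46 libraries, and were not tested. Mlxip encodes MondoA, a glucose-responsive factor that pairs with MLX. It was at 42.8, 47.0 and 38.1 CPM in resting, 39.0, 45.8 and 40.8 in DMSO and 60.8, 104 and 90.9 CPM in TEPP-46 libraries. The TEPP-46 libraries were above all others, with rises of 1.02 ± 0.24 against DMSO (adjusted p = 0.0201) and 1.0 ± 0.24 against resting cells (adjusted p = 0.0278, both edgeR). Its partner gene Mlx and Mga, which encodes a MAX partner, were not called in any comparison, with Mga at 56.9 to 145 CPM in TEPP-46 and Mlx at 43.7 to 94.3 CPM in resting libraries. Of the MondoA targets, Txnip, an inhibitor of glucose uptake, was at 336, 289 and 224 CPM in resting, 59.6, 45.8 and 96.8 in DMSO and 186, 255 and 341 CPM in TEPP-46 libraries. It fell by 2.07 ± 0.33 with activation and rose by 1.95 ± 0.33 with TEPP-46 against DMSO (adjusted p of 0.00170 and 0.00606, edgeR). Arrdc4, a related arrestin-domain gene, was higher than in resting cells with DMSO (1.94 ± 0.49) and with TEPP-46 (2.06 ± 0.50, adjusted p of 0.0144 and 0.0300, edgeR), from 33 resting counts in all. Unlike Txnip, Arrdc4 was not called for TEPP-46 against DMSO (0.11 ± 0.46, adjusted p = 0.882, edgeR). Each of these calls is 50.0% of the 2 targets tested. Beside them, 15.5% of all genes were called higher and 15.8% lower after activation. With TEPP-46, 9.72% of all genes were called higher against DMSO and 6.37% against resting cells. In a fit of just the TEPP-46 and resting libraries neither Mlxip nor Arrdc4 was called.

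Corepressor genes of the MXD and MNT proteins changed in a few cases, with Sap30 the largest. Sap30, a subunit of the SIN3 complex, was at 9.45, 9.77 and 9.30 CPM in resting, 70.9, 96.5 and 79.7 in DMSO and 20.4, 16.4 and 9.38 CPM in TEPP-46 libraries. It rose by 3.11 ± 0.31 with activation (adjusted p = 0.000223) and fell by 2.42 ± 0.30 with TEPP-46 (adjusted p = 0.00209, both edgeR). Of 9 listed corepressor genes, Sap30 rose and Sin3b (-0.72 ± 0.25) and Sap18 (-0.60 ± 0.20) fell with activation, beside 15.5% and 15.8% of all genes. On total counts alone 1 of the 9 was called after activation. With TEPP-46 against DMSO, Sap30 and the deacetylase gene Hdac2 (-1.40 ± 0.39, adjusted p = 0.0371, edgeR) fell, which is 22.2% of the list beside 6.43% of all genes. Hdac2 stood at 122, 124 and 121 CPM in DMSO and 56.9, 52.1 and 29.8 CPM in TEPP-46 libraries. The median change of this list was -0.14 with activation and -0.36 with TEPP-46 against DMSO.

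Of 11 MYC cofactor genes, Kat2a, which encodes an acetyltransferase, fell with activation (-1.03 ± 0.32, adjusted p = 0.0337, edgeR), while on total counts alone 0 of the list were called. Ruvbl2, an ATPase of chromatin complexes, fell with TEPP-46 against DMSO (-1.33 ± 0.27, adjusted p = 0.0121, edgeR), from 167 to 66.4 CPM on average. These single calls are 9.09% of the list, beside 15.8% of all genes called lower after activation and 6.43% with TEPP-46. Among 12 genes of MYC protein turnover, Usp28, a deubiquitinase that stabilises MYC, fell with activation from 182, 96.7 and 124 to 38.5, 41.0 and 38.8 CPM (-1.77 ± 0.34, adjusted p = 0.00432, edgeR). The phosphatase subunit gene Ppp2r5a also fell (-0.84 ± 0.23) and Skp2, of a ubiquitin ligase, rose (0.99 ± 0.33). The 1 rise and 2 falls are 8.33% and 16.7% of the list, beside 15.5% and 15.8% of all genes. With TEPP-46 against DMSO, the deubiquitinase gene Usp37 fell (-0.83 ± 0.22, adjusted p = 0.0295, edgeR), which is 8.33% of the list beside 6.43% of all genes. The ubiquitin ligase gene Fbxw7, known to mark MYC for degradation, was at 22.5, 23.8 and 27.6 CPM on average in resting, DMSO and TEPP-46 cells and was not called. For TEPP-46 against resting cells, edgeR called 0 genes in the cofactor, corepressor and turnover lists, where 2, 3 and 3 had an unadjusted p below 0.05, beside 10.3% of all genes called. DESeq2 called 0, 1 and 1 of them (2090 of all 12536 genes), limma-voom 0, 0 and 0 (1088 genes), and limma-voom with quality weights 6, 4 and 4 (3360 genes).

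**Figure D4:**
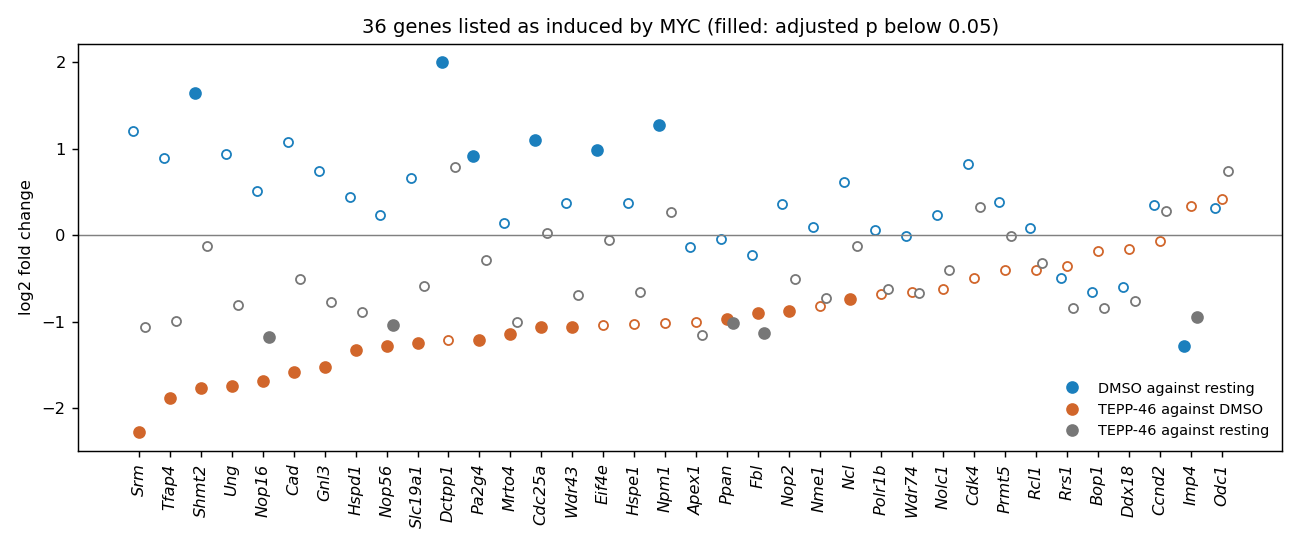
Log2 fold change (vertical axis) of 36 genes listed as induced by MYC, ordered by their change with TEPP-46 against DMSO, in the 3 comparisons. Filled points have an adjusted p below 0.05 and open points do not. With TEPP-46 against DMSO 34 of the 36 points lie below 0 and 18 are filled.

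Genes known to be induced by MYC were lower with TEPP-46 than with DMSO in 18 of 36 cases (50.0%, beside 6.43% of all genes called lower), with a median of -1.01 beside 0.04 over all genes. Nop16 and Nop56, which encode nucleolar proteins of ribosome production, fell from 74.3 ± 5.83 to 23.1 ± 4.54 CPM and from 366 ± 18.7 to 151 ± 38.0 CPM. The changes were -1.68 ± 0.24 and -1.28 ± 0.21 (adjusted p of 0.00320 and 0.00598, edgeR, mean ± SD, n = 3). Tfap4, a transcription factor gene, fell by 1.88 ± 0.35 and Wdr43, another nucleolar gene, by 1.06 ± 0.21. The DMSO and TEPP-46 libraries did not overlap in any of these 4 genes. Outside the rule for naming genes and chosen after its values were seen, the spermidine synthase gene Srm had the largest change, -2.28 ± 0.53, from 229, 197 and 183 to 58.0, 33.6 and 33.3 CPM. Odc1 and Imp4, likewise chosen after the fact, were the 2 genes with positive values (0.42 ± 0.53 and 0.34 ± 0.19), and were not called. Without DMSO replicate 1, 4 or 5 or TEPP-46 replicate 5 the count of 18 became 5, 4, 3 and 4. Over all genes 592, 535, 395 and 647 were called in these settings, instead of 2025. When any other single library was left out the count of the list was 13 to 25. The B cell, platelet and Malat1 with Neat1 sums given above were higher in TEPP-46 than in DMSO libraries, apart from Malat1 with Neat1 in replicate 1, and their part in these falls was not tested.

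Between resting and DMSO cells 6 genes of this list rose and 1 fell (16.7% and 2.78%, beside 15.5% and 15.8% of all genes), with a median of 0.37. The dCTP pyrophosphatase gene Dctpp1 rose from 8.81 ± 4.50 to 35.1 ± 1.62 CPM (2.00 ± 0.45), the mitochondrial serine enzyme gene Shmt2 by 1.65 ± 0.37 and the cell cycle phosphatase gene Cdc25a by 1.10 ± 0.25. Imp4, a gene of ribosomal RNA processing, was the one that fell (-1.28 ± 0.19, adjusted p = 0.00151, edgeR). Without any 1 of the resting or DMSO libraries 4 genes were called, and 12 and 13 were called without TEPP-46 replicates 1 and 4. Over all genes 2316 to 3358 were called in the former settings and 5093 and 5194 in the latter, instead of 3914. Against resting cells, TEPP-46 cells had lower Nop16, Nop56, Imp4, Fbl and Ppan, 13.9% of the list beside 3.92% of all genes, and Ppan was named outside the rule. That count became 12 without resting replicate 1, 1 and 0 without resting replicates 4 and 5, 11 and 10 without TEPP-46 replicates 1 and 4, and 3 without TEPP-46 replicate 5. Myc itself is no member of the list.

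Genes known to be repressed by MYC had no common direction with activation. Of 6 tested, Cdkn1a, an inhibitor of cell cycle kinases, rose with activation from 27.2, 2.64 and 5.19 to 238, 221 and 281 CPM (4.37 ± 0.81). Ndrg2 and Ndrg1 rose by 1.95 ± 0.29 and 2.25 ± 0.56, and Cdkn1b, another kinase inhibitor, fell by 1.66 ± 0.44 (adjusted p of 0.00343, 0.00128, 0.0126 and 0.0173 for these 4, edgeR). The 3 rises and 1 fall are 50.0% and 16.7% of the list, beside 15.5% and 15.8% of all genes. With TEPP-46 against DMSO edgeR called 0 of the 6, beside 16.2% of all genes, with 4 at an unadjusted p below 0.05, while DESeq2 called 2, limma-voom 0 and limma-voom with quality weights 5. The median change of the 6 in that comparison was -1.07, beside 0.04 over all genes, with 4 values negative and 2 positive. The median thus had the same sign as that of the MYC-induced list. Cdkn1a (2.88 ± 0.77) and Ndrg2 (1.27 ± 0.28) were higher with TEPP-46 than in resting cells (adjusted p of 0.0408 and 0.0212, edgeR), which is 33.3% of the list beside 6.37% of all genes.

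The genes with the profile nearest to each member were found by the root-mean-square difference of centred log2 CPM over the 9 libraries, among 8718 genes. Nearest to Myc were Vim, an intermediate filament gene (0.41, beside a median of 1.41 over all genes), the serine synthesis gene Phgdh and the DNA polymerase subunit gene Pole2. Vim averaged 110, 379 and 118 CPM and Phgdh 85.5, 409 and 98.2 CPM in resting, DMSO and TEPP-46 cells. Nearest to Mxd1 were the glutaredoxin gene Glrx (0.23, median 0.95), the ubiquitin ligase gene Trim25 and the sestrin gene Sesn3. Glrx averaged 32.6, 35.6 and 122 CPM in the 3 groups and Sesn3 211, 167 and 483 CPM. For Mxd4 they were Zfp687 (0.14, median 0.71), Arhgap26 and Rabep2, and for Max Rpp25l (0.09, median 0.50), Pik3cd and Snx2.

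Mxd3 was nearest to Gng12 (0.24, median 0.94), the cyclin gene Ccne2 and Agpat5, and Mxi1 to the kinase genes Stk38l (0.21, median 0.94) and Mapkapk2, followed by Twsg1. Mnt was nearest to Bicra (0.21, median 0.86), Snx21 and Git1. Among the members themselves, the closest pairs by this measure were Max with Mxd4 (0.44), Mxd3 with Mxi1 (0.51) and Mxd1 with Mxd4 (0.58), and the most distant were Myc with Mxd1 (1.85) and Myc with Mxd4 (1.81). These distances carry no p, and the 9 points share their groups.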

How the data were processed

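RNA of 9 libraries was measured, in 3 groups of 3. The authors deposited raw read counts per Ensembl gene, whole numbers without normalization, per the file headers and values. Per the submitters' processing notes, the build was GRCm38 and DESeq2 was among the tools. The sources used here do not name the aligner, the counting program, its strand setting or the annotation release. Of 47937 identifiers, 47224 were paired with a symbol of GENCODE M21 (3 of the 7 members with the same version number, the others by identifier alone).

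Of 23436 genes with a count, 12536 passed filterByExpr of edgeR 4.0.16 (minimum count 10, minimum total 15). Counts were scaled with TMM factors, and all libraries were fitted by group with glmQLFit and glmQLFTest in R 4.3.3, with 6 residual degrees of freedom. CPM are on TMM-scaled library sizes. Log2 CPM used a prior count of 2. Reads carry no molecular identifiers, so floors cover counting error only. The fitting was tested on simulated data.

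Alternatives were DESeq2 1.42.0, limma-voom 3.58.1 with and without sample quality weights, other scaling factors and filters, a fit of just the groups in question, a block for replicate number, and omission of each library (for the MYC-induced list this was added after the data were seen). The members and lists were chosen with earlier results of these data known. All 7 members are named, with up to 4 called genes of each list per comparison in order of adjusted p, and the 3 genes nearest in profile to each member (mean of at least 10 CPM, no clone or predicted-gene name). Lists were given no test of their own.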

Additional observations from a re-analysis of the deposited data

How the results depend on the processing

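Between 395 and 4407 genes were called for TEPP-46 against DMSO when single libraries were left out (2025 with all), 2316 to 5194 after activation (3914) and 426 to 1897 for TEPP-46 against resting cells (1289). The members called ranged from 1 to 5, 1 to 3 and 1 to 3 in the same order. DESeq2 called 3057 genes for TEPP-46 against DMSO and 2090, with 2 members, against resting cells. Sample quality weights gave 6164, 7315 and 3360 genes for TEPP-46 against DMSO, activation and TEPP-46 against resting cells, and 5 members in each. The members added to edgeR's calls were Mxd3 and Mxi1 for TEPP-46 against DMSO and Max and Mnt after activation. Against resting cells they were Myc, Mxd4, Mxi1 and Mnt. Without a filter 2 members were called against resting cells, and with only the groups compared 400 genes. The causes were not tested. Signs changed for Mxd1 after activation (0.01 on total counts alone, and -0.21 to 0.02 when single libraries were left out). Over the same omissions signs also changed for Mnt with TEPP-46 against DMSO (-0.16 to 1.0), and for Max (-0.10 to 0.01) and Myc (-1.23 to 0.27, with 0.05 and 0.00 without TEPP-46 replicates 4 and 5) against resting cells. None of the values of changed sign was called. Among 36 MYC-induced genes, DESeq2 called 13 after activation and 12 for TEPP-46 against resting cells, beside 7 and 5 in edgeR. Total counts alone shifted the median gene by 0.11 after activation and -0.13 for TEPP-46 against DMSO, where 43.8% of calls were then rises instead of 60.2%. The 3 members called in each of these comparisons were called there too. Deviations of same-numbered libraries correlated at -0.123 to 0.089 and those of different numbers at -0.108 to 0.123. Between DMSO and TEPP-46, same numbers gave 0.058, 0.036 and 0.087, and different numbers -0.098 to 0.034. Between resting and DMSO they gave 0.068, 0.089 and -0.026, and -0.108 to 0.039. Between resting and TEPP-46 they gave -0.106, -0.09 and -0.123, and -0.037 to 0.123. Whether replicate numbers pair the libraries cannot be told from these values. With the number as a replicate block, 3339, 1384 and 705 genes were called after activation, for TEPP-46 against DMSO and against resting cells, with 2, 2 and 1 members, and Myc had adjusted p of 0.102 and 0.0658 in the first 2 of these. With the block 11 MYC-induced genes (18 without) and 1 corepressor gene (2 without) were called for TEPP-46 against DMSO, where the Usp37 call was lost. After activation 1 corepressor gene (3 without) was called, and against resting cells the calls of Mlxip and Arrdc4 were lost. The filter on low counts kept Mycn, Mycl and Mlxipl, with at most 16 counts in a group, out of the tests.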
